A study of Mus musculus with 6 samples.

Results

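The DNA replication machinery genes are 42 genes whose products mark and license replication origins, unwind DNA, copy it and supply its building blocks. They were followed in TEC, or thymic epithelial cells, which support and select developing T cells. Members were all non-control probes whose annotated name is one of the 42 genes, with older synonyms counted (Orc1l for Orc1 and Cdc45l for Cdc45, for example, for 7 genes). This gave 61 of 41174 probes, and 42 of 28032 named genes. A gene was tested where a probe of it was well above background on both arrays of at least 1 gate, which all 42 members and 18207 genes in all met, and the probe with the highest mean signal stood for the gene.

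Mice of the strain C57BL/6, aged 4 weeks, carried the BAC transgene Tg(Meis1-EGFP)FO156Gsat/Mmcd, in which EGFP reports activity of the regulatory sequence of Meis1, a homeodomain transcription factor gene. TEC that lacked the leukocyte antigen CD45 and carried the adhesion molecule EpCAM were sorted into 3 gates, and every gate came from mice with the same transgene. Cells of low forward scatter, a measure of size, made up the Meis1-high gate if EGFP was bright and the Meis1-negative gate if EGFP was absent, while the Meis1-low gate took cells of high forward scatter whose EGFP was intermediate. Reporter level and cell size therefore cannot be told apart between Meis1-low and either other gate. The design gives 2 independent experiments on pools of 6 mice, so each gate has 2 samples, and from each sample 10 ng of RNA was amplified and hybridised in 1 colour (Cy3) to a whole mouse genome array. Levels below are log2 signals relative to the 75th percentile of the array, with replicate 1 of a gate given first, and a difference is the first-named gate minus the second. The labels do not say whether samples of the same replicate number came from 1 pool. The p-values and SE rest on 1 spread per gene, pooled over the 2 samples of each of the 3 gates. Those of Meis1-high against Meis1-low therefore also carry the spread within Meis1-negative.

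Replication begins when the origin recognition complex (Orc1 to Orc6) recruits Cdc6 and Cdt1, which load the MCM2-7 helicase on DNA, while geminin (Gmnn) holds Cdt1 in check to prevent another round. Cdc45 and the GINS proteins activate the helicase, primase and the replicative polymerases copy the strands, and the sliding clamp PCNA, its loader RFC, the single-strand binding protein RPA, Fen1 and Lig1 complete them. Many of these genes are transcribed in a wave at the start of S phase under E2F control, and in the thymus both dividing TEC and dividing thymocytes use them. In RNA from a bulk sort, fewer cells in S phase and less of a transcript per cell cannot be told apart.

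The 75th percentile of signal lay between 73.4 (Meis1-high replicate 1) and 164.9 (Meis1-negative replicate 2), and the scanner marked 53.1% to 69.6% of an array's spots as well above background. Of the 42 members, 36 were well above background on every array. Meis1 itself had levels of -3.20 and -0.99 in Meis1-negative, compared with -2.35 and -1.61 in Meis1-low, and with 0.24 and 0.12 in Meis1-high. The 14 epithelial markers, Epcam and Foxn1 among them, were well above background on every array. Meis1-negative replicate 1 stood apart. On it all 21 thymocyte and T cell markers were well above background (14 to 19 on the other arrays), and the summed signal of the 19 tested ones was 1220 times the 75th percentile, against 28.7 on Meis1-negative replicate 2 and 10.3 to 14.9 on the Meis1-high and Meis1-low arrays. The summed signal of the 14 epithelial markers was 81.1 there and 261.0 to 689.1 on the other arrays. Differences from the Meis1-negative gate are therefore given with and without this array. Replicate 1 of every gate lay on slide 1 and replicate 2 on slide 2.

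As a set, the members had their lowest levels in Meis1-high and their highest in Meis1-negative. Their median level was 2.07 and 0.09 in Meis1-negative, compared with 0.47 and 0.03 in Meis1-low and with -0.14 and -0.37 in Meis1-high. The single array of Meis1-negative replicate 1 thus lay far above the rest, while Meis1-negative replicate 2 lay between the Meis1-low arrays. For 39 of 42 members Meis1-negative replicate 1 was the highest of the 6 arrays, as it was for 28.2% of all genes tested. Orc5, Pold1 and Rfc3 were the exceptions. For 36 members the lowest array was 1 of the 2 Meis1-high arrays, 18 on each. The share of all genes with their lowest array there was not counted. Of all genes, 55.4% had a lower mean in Meis1-high than in Meis1-low, and 53.7% a lower mean than in Meis1-negative.

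**Figure D1:**
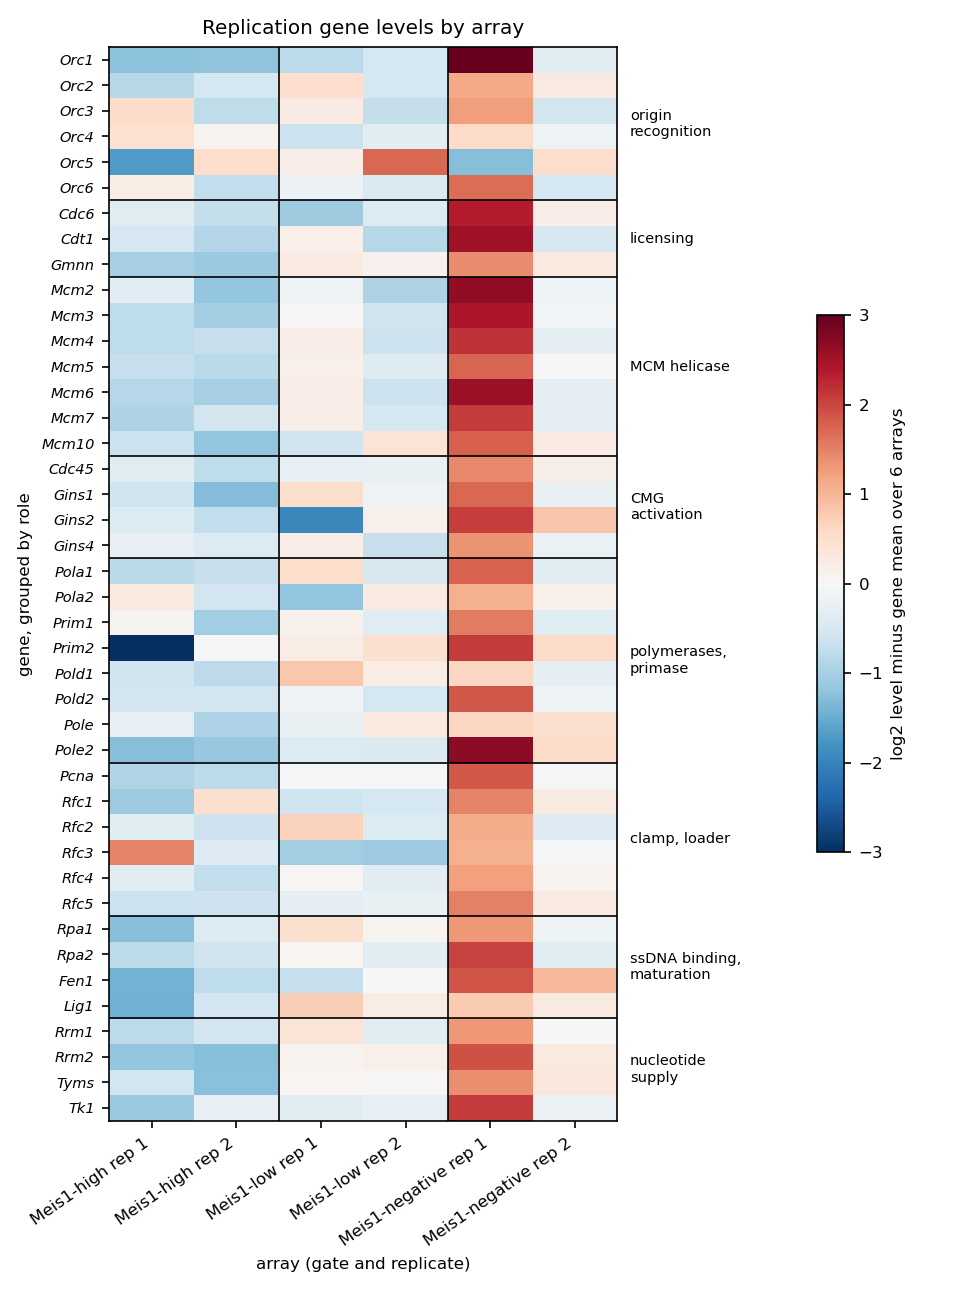
Level of each replication gene on each of the 6 arrays, as the log2 level minus the gene's mean over the 6 arrays (colour scale capped at -3 and 3), with genes in rows grouped by role and arrays in columns. The column of Meis1-negative replicate 1 is the reddest for 39 of 42 genes, and the Meis1-high columns hold most of the blue cells.

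In limma with Benjamini-Hochberg adjustment over 18207 genes and a threshold of 0.05, 0 of 42 members were called in any of the 3 comparisons, and neither was any other gene (0% called). At an unadjusted p under 0.05, 0 members were lower in Meis1-high than in Meis1-low (8.29% of all genes), 10 were lower in Meis1-high than in Meis1-negative (4.84%), and 4 were lower in Meis1-low than in Meis1-negative (3.07%). No member was higher at that level in any of the 3 (4.68%, 5.68% and 5.01% of all genes). As the spread is pooled over the gates, the counts for Meis1-high against Meis1-low also depended on the Meis1-negative arrays. The moderated F test over the 3 gates called 0 members and 0% of all genes, with an unadjusted p under 0.05 for 3 members (11.5% of all genes) and a smallest adjusted p of 0.343 among members. The values below are therefore levels and differences of 2 arrays per gate, none past the threshold in this fit. Differences are on the log2 scale and given ± SE from limma (n = 2 per gate), and adjusted p-values are from the same fit.

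Set against Meis1-low, the members lay lower in Meis1-high, with the groups apart for part of them. The median log2 difference was -0.60 over the members (-0.76 on slide 1 and -0.42 on slide 2) and -0.15 over all genes. In 34 of 42 members the mean was lower in Meis1-high (55.4% of all genes), and in 32 it was lower on both slides (40.8%). Both Meis1-high arrays lay below both Meis1-low arrays for 27 members (31.1% of all genes), and above them for 2, Orc4 and Rfc3 (22.6%). The first count was 16 (22.0%) with normexp background correction, which gave a median of -0.31 against -0.11 over all genes, and 17 (28.3%) with median scaling. Without Meis1-low replicate 1 the median was -0.36.

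Marker sums, in multiples of the 75th percentile, moved with this comparison too. The epithelial markers summed to 689 and 656 in Meis1-high and to 369 and 261 in Meis1-low, and the medullary ones to 214 and 175 against 83.8 and 94.3. Of the 14 epithelial markers, 5 had a lower mean in Meis1-high (55.4% of all genes) and 9 a higher one, with a median log2 difference of 0.56. Of the 7 medullary genes, Ccl21a alone had a higher mean in Meis1-high, by 3.34 ± 0.79 (adjusted p = 0.253). The other 6 were lower (55.4% of all genes), and the median over the medullary list was -0.73. Leukocyte and erythroid sums were lower in Meis1-high, with pan-leukocyte markers at 25.9 and 15.3 against 41.8 and 39.1, dendritic cell and macrophage markers at 16.1 and 11.5 against 51.0 and 45.7, and erythroid markers at 2.63 and 1.49 against 7.39 and 6.86. Of 7 erythroid markers 2 and 3 were well above background in Meis1-high and 6 on each Meis1-low array. The 6 tested ones were all lower in Meis1-high without overlap (31.1% of all genes). B cell markers (1.76 and 0.96 against 2.79 and 1.88) and thymocyte markers (10.3 and 11.0 against 14.9 and 11.5) lay closer, and the sums of cortical epithelial and of fibroblast and endothelial markers overlapped. The median log2 differences over these last lists were 1.86 and 0.75, against -0.15 over all genes. By gene, 7 of 10 pan-leukocyte and 9 of 9 dendritic cell and macrophage markers had a lower mean in Meis1-high (55.4% of all genes). So did 5 of 6 B cell and 12 of 19 thymocyte markers, while the other tested ones of these lists were higher. The part of all these markers in the result was not tested.

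Between Meis1-high and Meis1-negative the median log2 difference of the members was -1.53, against -0.10 over all genes. The size depended on the slide, with -2.43 on slide 1 and -0.70 on slide 2. Of the 42 members, 40 were lower in Meis1-high (53.7% of all genes), 38 of them on both slides (30.8%), and the groups did not overlap for 33 (20.0%). Without Meis1-negative replicate 1 the median was -0.68 (-0.12 over all genes), 38 members were lower (55.8%), 33 had both Meis1-high arrays below the remaining Meis1-negative array (38.3%), and 3 had an unadjusted p under 0.05 (6.11%). Marker lists moved with the comparison on the remaining array as well. Against it, Meis1-high had medians of -1.42 over thymocyte and T cell markers, -1.63 over pan-leukocyte, -2.98 over B cell, -1.64 over dendritic cell and macrophage, -0.94 over erythroid and 1.002 over epithelial markers, and their part in the result was not tested.

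The call of 0 members in this comparison changed under 2 settings. With normexp background correction Mcm3, Mcm6 and Pcna passed the threshold, among 351 genes (1.93%). Without Meis1-negative replicate 2 the median was -2.46, and Orc1, Mcm3, Mcm6, Pole2 and Rrm2 passed, among 946 genes (5.20%). That fit left the gate with the 1 array rich in thymocyte markers, and assumed that it varied as the arrays of the other gates did.

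Between Meis1-low and Meis1-negative the median was -0.97 over the members and 0.05 over all genes, again with a gap between slides, -1.82 on slide 1 and -0.22 on slide 2. The mean was lower in Meis1-low for 40 members (48.0% of all genes), and 33 were lower on both slides (28.7%), but the groups did not overlap for only 17 (15.8%), or 6 (9.62%) with normexp background correction, 9 (13.8%) with median scaling and 33 (27.4%) without Meis1-low replicate 1. Without Meis1-negative replicate 1 the median was -0.14 (0.04 over all genes), with 25 of 42 members lower (47.3%) and 17 with both Meis1-low arrays below the remaining array (31.0%). The distance between these gates thus depended on Meis1-negative replicate 1. Without it the number of members with an unadjusted p under 0.05 went from 4 to 0 (2.15%). On the remaining array Meis1-low still differed by medians of -1.27 over thymocyte and T cell, -0.96 over pan-leukocyte, -1.76 over B cell, 1.32 over erythroid and 0.35 over dendritic cell and macrophage markers, and their part in the result was not tested. Without Meis1-negative replicate 2 the median was -1.77, 40 members lay below the remaining array (37.7%), and Orc1, Cdc6 and Pole2 passed the threshold among 1265 genes (6.95%), again with 1 array standing for that gate.

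**Figure D2:**
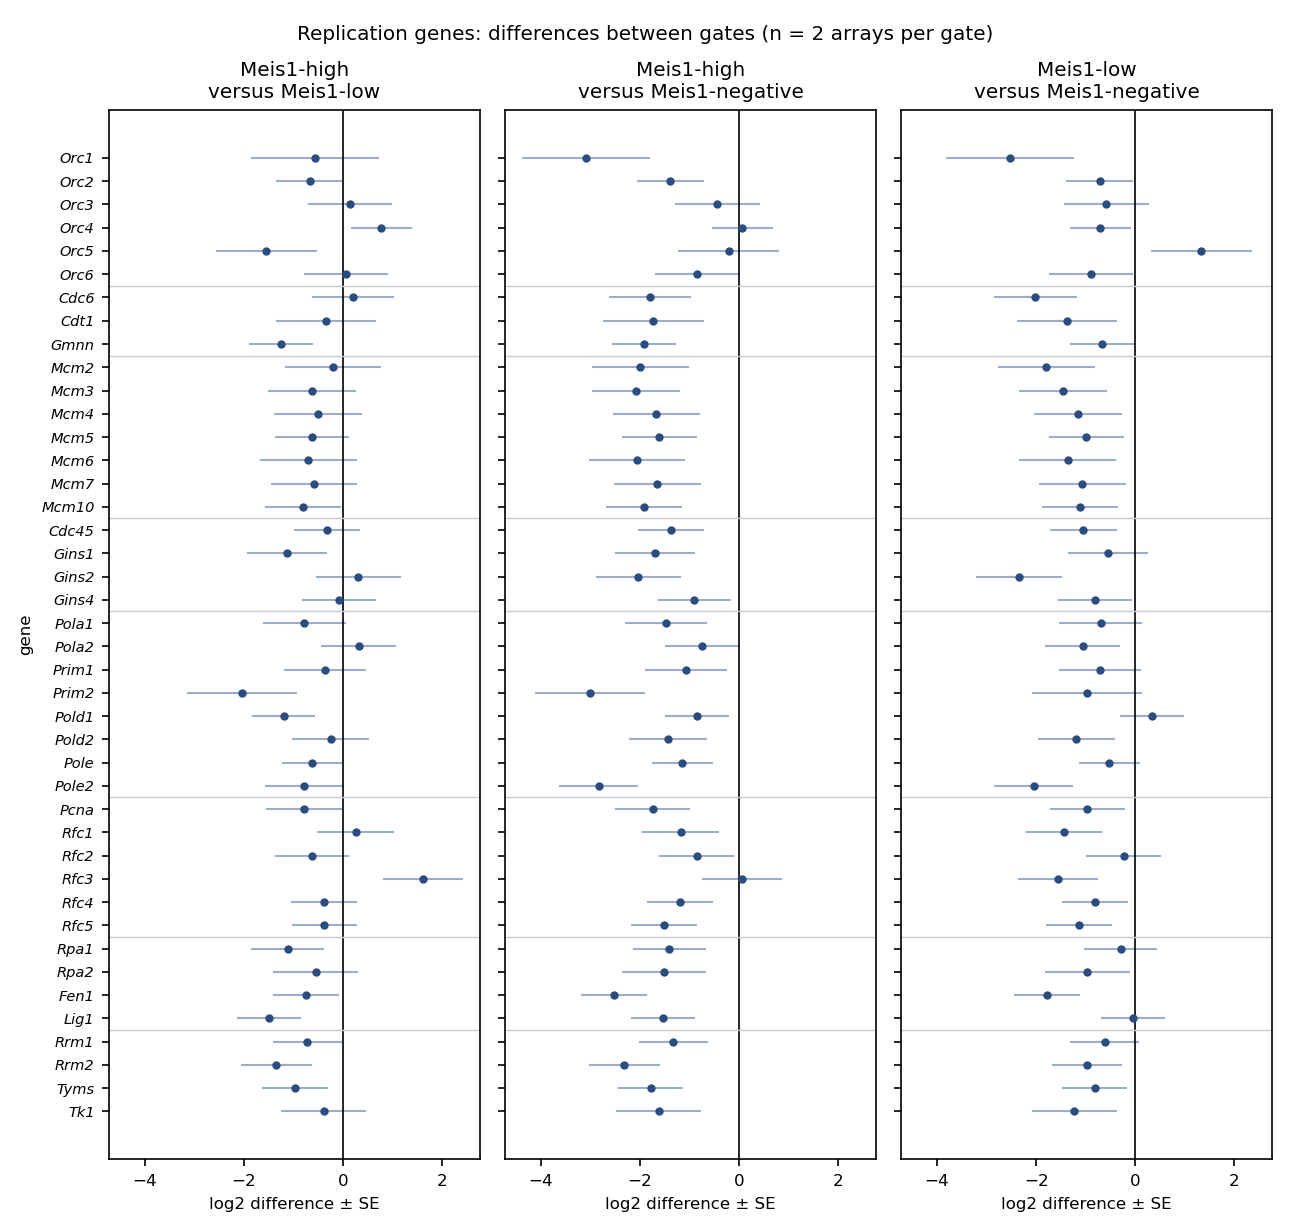
Log2 differences of each replication gene (points) with SE (bars, limma, n = 2 arrays per gate) in the 3 comparisons, with genes in rows grouped by role. Most points lie left of 0, by a median of -0.60, -1.53 and -0.97.

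**Figure D3:**
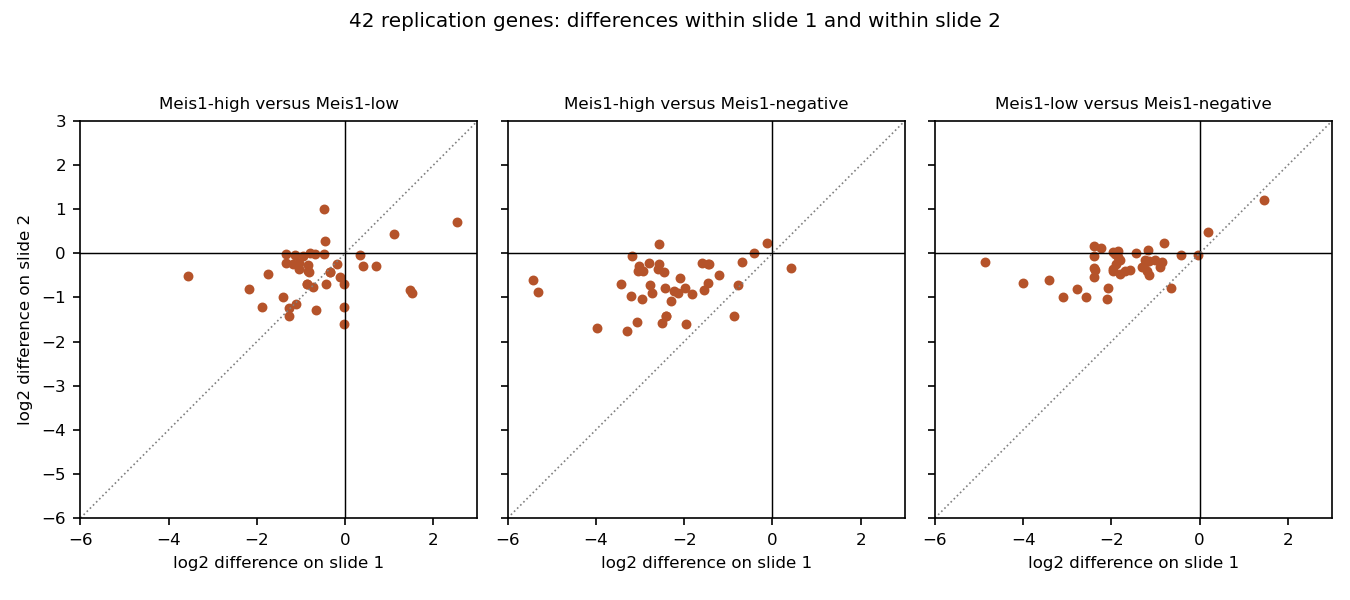
Log2 difference of each of the 42 genes on slide 1 (x axis) against slide 2 (y axis) in the 3 comparisons, where the dotted line marks equal values. In both comparisons with Meis1-negative the points reach farther to the left of 0 on slide 1 than below 0 on slide 2. The medians on slide 1 and slide 2 are -2.43 and -0.70 for Meis1-high and -1.82 and -0.22 for Meis1-low.

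The subunits of the origin recognition complex did not share 1 pattern. Orc1, the subunit whose amount varies over the cell cycle, had levels of 0.43 and -3.98 in Meis1-negative, compared with -4.44 and -4.18 in Meis1-low, and with -4.88 and -4.86 in Meis1-high. It was well above background on the Meis1-negative arrays alone, and replicate 1 of that gate lay 4.41 above replicate 2, the widest gap of any member within a gate. Orc1 thus met the filter through Meis1-negative alone, so its p-values against that gate are no independent support. Against the mean of Meis1-negative, Orc1 was lower by at least 3.59-fold in Meis1-high (adjusted p = 0.464) and by at least 5.51-fold in Meis1-low (adjusted p = 0.608). Measured means were -1.78 in Meis1-negative, -4.31 in Meis1-low and -4.87 in Meis1-high. These bounds allow for the detection limit, not for the gap between the Meis1-negative arrays. Leaving out Meis1-negative replicate 1, the measured differences shrank to -0.89 and -0.33. Orc2, another core subunit, had levels of 0.71 and -0.18 in Meis1-negative, compared with 0.06 and -0.96 in Meis1-low, and with -1.28 and -0.97 in Meis1-high, and Meis1-high lay below Meis1-negative without overlap, with a difference of -1.39 ± 0.68 (adjusted p = 0.535), or -0.94 without Meis1-negative replicate 1.

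The other subunits did not share that order. Orc4 had levels of 2.31 and 1.60 in Meis1-negative, compared with 1.10 and 1.40 in Meis1-low, and with 2.20 and 1.84 in Meis1-high, and both Meis1-high arrays lay above both Meis1-low arrays, with a difference of 0.77 ± 0.62 (adjusted p = 0.648). The other 3 probes of Orc4 gave the opposite direction, with differences of -0.46, -0.50 and -1.85, and the mean over all 4 gave -0.51. Orc5 had levels of -4.54 and -2.76 in Meis1-negative, compared with -3.08 and -1.55 in Meis1-low, and with -4.96 and -2.76 in Meis1-high, was well above background on 4 arrays, and differed by -1.55 ± 1.02 between Meis1-high and Meis1-low (adjusted p = 0.574) and by 1.34 ± 1.02 between Meis1-low and Meis1-negative (adjusted p = 0.699). The first came to -0.44 without Meis1-high replicate 1, and the second to 0.45 without Meis1-negative replicate 1. This probe of Orc5 met the filter through Meis1-low alone, the gate where it was highest. Its p-values against that gate are therefore no independent support. Another probe of Orc5 that passed the filter, well above background on 2 arrays, gave differences of opposite sign, 0.98 and -1.88, and the mean over both turned the second to -0.27. It was the only member with a lower level on Meis1-negative replicate 1 than on replicate 2, with a difference of -1.79. Orc3 had levels of 1.79 and -0.01 in Meis1-negative, compared with 0.78 and -0.17 in Meis1-low, and with 1.11 and -0.21 in Meis1-high, and Orc6 of 3.29 and 1.10 in Meis1-negative, compared with 1.44 and 1.15 in Meis1-low, and with 1.84 and 0.87 in Meis1-high. In both, replicate 1 of every gate was the higher one and all 3 gates overlapped.

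Licensing factors load the helicase onto origins or restrain that step. Cdc6, the loader ATPase, had levels of 0.10 and -2.07 in Meis1-negative, compared with -3.32 and -2.67 in Meis1-low, and with -2.62 and -2.96 in Meis1-high. Meis1-high and Meis1-low overlapped, and both lay below Meis1-negative, with differences of -1.81 ± 0.83 (adjusted p = 0.505) and -2.01 ± 0.83 (adjusted p = 0.608). Without Meis1-negative replicate 1 these were -0.72 and -0.93. Cdt1, the partner of Cdc6, had levels of 2.64 and -0.38 in Meis1-negative, compared with 0.26 and -0.75 in Meis1-low, and with -0.42 and -0.78 in Meis1-high. Its Meis1-negative arrays lay 3.02 apart, the difference from Meis1-low was -1.38 ± 1.01 (adjusted p = 0.689) and turned to 0.13 without Meis1-negative replicate 1. Between Meis1-high and Meis1-low, Cdt1 differed by -0.35 ± 1.01 (adjusted p = 0.914), and by 0.16 without Meis1-low replicate 1.

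Geminin, the inhibitor of Cdt1 that accumulates from S phase until mitosis, had close replicates in Meis1-high and in Meis1-low. Gmnn had levels of 2.44 and 1.31 in Meis1-negative, compared with 1.28 and 1.14 in Meis1-low, and with 0.02 and -0.11 in Meis1-high. Both Meis1-high arrays lay below all others, with differences of -1.26 ± 0.65 from Meis1-low (adjusted p = 0.47) and -1.92 ± 0.65 from Meis1-negative (adjusted p = 0.388). The first was close to equal on both slides, at -1.27 and -1.25, and the second was -1.36 without Meis1-negative replicate 1.

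The MCM helicase genes lay close together in their differences. All 7 (Mcm2 to Mcm7, the ring of the replicative helicase, and Mcm10, which helps to activate it) lay lower in Meis1-high than in Meis1-negative. The groups did not overlap for any of the 7 (20.0% of all genes), with differences from -2.08 to -1.61. They were smaller without Meis1-negative replicate 1, from -1.15 to -0.45, and the median of the 7 went from -1.92 to -0.62. Mcm6 had levels of 8.86 and 5.97 in Meis1-negative, compared with 6.47 and 5.63 in Meis1-low, and with 5.42 and 5.28 in Meis1-high. Mcm3 had levels of 5.54 and 3.03 in Meis1-negative, compared with 3.15 and 2.50 in Meis1-low, and with 2.34 and 2.08 in Meis1-high, and Mcm4 of 5.93 and 3.49 in Meis1-negative, compared with 3.97 and 3.13 in Meis1-low, and with 3.01 and 3.08 in Meis1-high. In each of these 3 the first Meis1-negative array was the highest, and the other lay between the Meis1-low arrays. Against Meis1-negative, Mcm3 differed by -2.08 ± 0.89 in Meis1-high (adjusted p = 0.475) and by -1.46 ± 0.89 in Meis1-low (adjusted p = 0.636). These came to -0.83 and -0.21 without Meis1-negative replicate 1. With normexp background correction the first was -2.11 for Mcm3 (adjusted p = 0.0103, limma) and -2.19 for Mcm6 (adjusted p = 0.00663).

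Mcm7 had levels of 6.08 and 3.70 in Meis1-negative, compared with 4.19 and 3.46 in Meis1-low, and with 3.05 and 3.42 in Meis1-high, Mcm5 of 2.67 and 0.91 in Meis1-negative, compared with 1.08 and 0.53 in Meis1-low, and with 0.24 and 0.13 in Meis1-high, and Mcm2 of 1.61 and -1.17 in Meis1-negative, compared with -1.17 and -1.97 in Meis1-low, and with -1.35 and -2.20 in Meis1-high. For all but Mcm2, both Meis1-high arrays lay below both Meis1-low arrays (31.1% of all genes). The differences between these gates were small, from -0.20 to -0.81 over the 7 genes. Mcm5 differed by -0.63 ± 0.75 there (adjusted p = 0.763). In Mcm2 the difference between Meis1-low and Meis1-negative was -1.79 ± 0.97 (adjusted p = 0.616), and -0.40 without Meis1-negative replicate 1. Mcm10 had levels of 1.21 and -0.34 in Meis1-negative, compared with -1.18 and -0.17 in Meis1-low, and with -1.21 and -1.77 in Meis1-high. Meis1-high differed from Meis1-low by -0.81 ± 0.77 (adjusted p = 0.704), nearly all of it on slide 2, where the difference was -1.59 against -0.03 on slide 1. From Meis1-negative it differed by -1.92 ± 0.77 (adjusted p = 0.451), or -1.15 without Meis1-negative replicate 1.

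Cdc45 and the GINS subunits bind the MCM ring to form the active helicase. Gins2 had levels of 0.63 and -0.61 in Meis1-negative, compared with -3.38 and -1.29 in Meis1-low, and with -1.86 and -2.19 in Meis1-high, so that Meis1-low replicate 1 was the lowest array by far. Its differences from Meis1-negative were -2.04 ± 0.86 in Meis1-high (adjusted p = 0.467) and -2.34 ± 0.86 in Meis1-low (adjusted p = 0.608), and without Meis1-low replicate 1 the latter was -1.30. Leaving out Meis1-negative replicate 1 gave -1.42 and -1.73. Gins1 had levels of 0.82 and -1.10 in Meis1-negative, compared with -0.36 and -1.03 in Meis1-low, and with -1.48 and -2.19 in Meis1-high, with Meis1-high below both other gates. It differed by -1.14 ± 0.81 from Meis1-low (adjusted p = 0.604), -1.12 and -1.15 on the slides, and by -1.69 ± 0.81 from Meis1-negative (adjusted p = 0.522), the last going to -0.73 without Meis1-negative replicate 1. Probes of Gins1 that passed the filter differed in direction between Meis1-high and Meis1-low. The other probe gave 0.59 but was well above background on only 2 arrays. Its levels were -5.51 and -6.32 in Meis1-high and -6.60 and -6.41 in Meis1-low. Cdc45 had levels of -0.72 and -1.99 in Meis1-negative, compared with -2.41 and -2.39 in Meis1-low, and with -2.53 and -2.92 in Meis1-high, so that the gates did not overlap in any pair, with differences of -0.33 ± 0.67 between Meis1-high and Meis1-low (adjusted p = 0.871) and -1.05 ± 0.67 between Meis1-low and Meis1-negative (adjusted p = 0.649). The latter was -0.41 without Meis1-negative replicate 1. Gins4 had levels of 2.80 and 1.24 in Meis1-negative, compared with 1.66 and 0.75 in Meis1-low, and with 1.20 and 1.03 in Meis1-high, so that all arrays but Meis1-negative replicate 1 lay between 0.75 and 1.66.

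Among the polymerases, the accessory subunit of the leading-strand polymerase epsilon, Pole2, was next to Fen1 the member with the smallest p between Meis1-high and Meis1-negative. Its levels were 0.28 and -1.84 in Meis1-negative, compared with -2.82 and -2.84 in Meis1-low, and with -3.70 and -3.54 in Meis1-high, and the 3 gates did not overlap. It differed by -2.83 ± 0.80 between Meis1-high and Meis1-negative (adjusted p = 0.336) and by -2.05 ± 0.80 between Meis1-low and Meis1-negative (adjusted p = 0.608). These were -1.77 and -0.99 without Meis1-negative replicate 1. The catalytic subunit Pole had levels of -2.17 and -2.32 in Meis1-negative, compared with -3.03 and -2.51 in Meis1-low, and with -3.05 and -3.73 in Meis1-high and was not well above background on either Meis1-high array, which bounds it as at least 1.54-fold lower than in Meis1-low and at least 2.21-fold lower than in Meis1-negative, with measured means of -3.39, -2.77 and -2.24. The measured difference of Meis1-high from Meis1-negative was -1.07 without Meis1-negative replicate 1.

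Prim2, the large primase subunit, had levels of 0.65 and -0.87 in Meis1-negative, compared with -1.22 and -0.97 in Meis1-low, and with -4.79 and -1.47 in Meis1-high. Meis1-high replicate 1, where the probe was not well above background, lay far below every other array. Prim2 differed by -2.04 ± 1.11 from Meis1-low (adjusted p = 0.493) and by -3.02 ± 1.11 from Meis1-negative (adjusted p = 0.423), and these came to -0.38 and -1.36 without Meis1-high replicate 1. The second was -2.26 without Meis1-negative replicate 1. Pold1, the catalytic subunit of the lagging-strand polymerase delta, had levels of 2.40 and 1.51 in Meis1-negative, compared with 2.60 and 2.01 in Meis1-low, and with 1.19 and 1.01 in Meis1-high, with Meis1-low replicate 1 the highest array. Both Meis1-high arrays lay below all others, with a difference of -1.20 ± 0.64 from Meis1-low (adjusted p = 0.485). Pold2, its accessory subunit, had levels of 0.06 and -1.93 in Meis1-negative, compared with -1.90 and -2.33 in Meis1-low, and with -2.39 and -2.35 in Meis1-high, with a difference of -1.18 ± 0.78 between Meis1-low and Meis1-negative (adjusted p = 0.658) that was -0.19 without Meis1-negative replicate 1.

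Polymerase alpha and primase lay the first bases of each strand. Pola1, its catalytic subunit, had levels of 2.59 and 0.49 in Meis1-negative, compared with 1.35 and 0.34 in Meis1-low, and with 0.00 and 0.13 in Meis1-high, with both Meis1-high arrays below all others. Pola2, the regulatory subunit, had levels of -1.80 and -2.70 in Meis1-negative, compared with -4.04 and -2.59 in Meis1-low, and with -2.57 and -3.42 in Meis1-high, and the catalytic primase subunit Prim1 of 1.48 and -0.44 in Meis1-negative, compared with 0.04 and -0.43 in Meis1-low, and with 0.02 and -1.12 in Meis1-high. Neither separated the gates: Meis1-high overlapped with both other gates in each.

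PCNA, the clamp that holds polymerases on DNA, is often used to mark S phase. Pcna had levels of 6.50 and 4.57 in Meis1-negative, compared with 4.58 and 4.56 in Meis1-low, and with 3.72 and 3.86 in Meis1-high. Both Meis1-high arrays lay below all others, and the Meis1-low arrays and Meis1-negative replicate 2 were nearly equal. Pcna differed by -0.79 ± 0.77 between Meis1-high and Meis1-low (adjusted p = 0.715), with -0.86 and -0.71 on the slides, and by -1.75 ± 0.77 between Meis1-high and Meis1-negative (adjusted p = 0.488), or -0.78 without Meis1-negative replicate 1. With normexp background correction the second was -1.86 and passed the threshold (adjusted p = 0.0382, limma). Its probe, printed 10 times on the array, lies on chromosome 2 at 132075420 to 132075557 of mm9 and may also pick up transcripts of the pseudogenes Pcna-ps1 and Pcna-ps2.

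The clamp loader subunits did not move as 1. Rfc5 had levels of 3.07 and 1.83 in Meis1-negative, compared with 1.27 and 1.35 in Meis1-low, and with 0.93 and 0.93 in Meis1-high, with all 3 gates apart and a difference of -1.52 ± 0.66 between Meis1-high and Meis1-negative (adjusted p = 0.484), or -0.90 without Meis1-negative replicate 1. Rfc3, in contrast, had levels of 0.59 and -0.53 in Meis1-negative, compared with -1.52 and -1.56 in Meis1-low, and with 1.01 and -0.86 in Meis1-high. It was higher in Meis1-high than in Meis1-low without overlap, by 1.61 ± 0.81 (adjusted p = 0.456), a difference of 2.53 on slide 1 and 0.70 on slide 2, and lower in Meis1-low than in Meis1-negative, with a difference of -1.56 ± 0.81 (adjusted p = 0.61), or -1.01 without Meis1-negative replicate 1. Rfc1, the large subunit, had levels of 2.51 and 1.30 in Meis1-negative, compared with 0.43 and 0.51 in Meis1-low, and with -0.06 and 1.51 in Meis1-high, and differed by -1.43 ± 0.77 between Meis1-low and Meis1-negative (adjusted p = 0.613), or -0.83 without that array. Rfc2 had levels of 4.10 and 2.61 in Meis1-negative, compared with 3.67 and 2.57 in Meis1-low, and with 2.63 and 2.36 in Meis1-high, and Rfc4 of 1.11 and -0.02 in Meis1-negative, compared with -0.09 and -0.43 in Meis1-low, and with -0.44 and -0.85 in Meis1-high. In Rfc4 both Meis1-high arrays were the lowest, while in Rfc2 the gates overlapped.

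Lagging-strand maturation included the members with the smallest p in both comparisons of Meis1-high. Lig1, the ligase that seals Okazaki fragments, had levels of 3.81 and 3.28 in Meis1-negative, compared with 3.77 and 3.25 in Meis1-low, and with 1.58 and 2.44 in Meis1-high. The Meis1-high arrays were the lowest, and the Meis1-low and Meis1-negative arrays lay close to each other, Meis1-negative replicate 1 included. Lig1 differed by -1.50 ± 0.65 from Meis1-low (adjusted p = 0.392, 95% interval -3.01 to 0.02) and by -1.54 ± 0.65 from Meis1-negative (adjusted p = 0.467), or -1.27 without Meis1-negative replicate 1. Fen1, the nuclease that trims the fragments, had levels of -1.90 and -2.79 in Meis1-negative, compared with -4.47 and -3.78 in Meis1-low, and with -5.20 and -4.55 in Meis1-high. It was not well above background on either Meis1-high array, and was at least 2.43-fold lower there than in Meis1-negative (adjusted p = 0.323), with measured means of -4.87 and -2.34 and a measured difference of -2.09 without Meis1-negative replicate 1. Fen1 met the filter through Meis1-negative alone, the gate where it was highest, so its rank by p is no independent support for that difference. In Meis1-low it was well above background on 1 of 2 arrays, and that gate differed from Meis1-negative by -1.78 ± 0.67 (adjusted p = 0.608), or -1.34 without Meis1-negative replicate 1. With normexp background correction the direction turned, to 0.081.

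The RPA genes encode subunits of the complex that coats single-stranded DNA. Rpa1 had levels of 1.83 and 0.37 in Meis1-negative, compared with 1.01 and 0.61 in Meis1-low, and with -0.75 and 0.13 in Meis1-high, with Meis1-high below Meis1-low and a difference of -1.12 ± 0.73 (adjusted p = 0.574). Rpa2 had levels of 2.58 and 0.20 in Meis1-negative, compared with 0.61 and 0.23 in Meis1-low, and with -0.22 and -0.03 in Meis1-high, and Meis1-negative replicate 2 lay below the Meis1-low arrays. Its difference between Meis1-low and Meis1-negative was -0.96 ± 0.85 (adjusted p = 0.746), and 0.23 without Meis1-negative replicate 1.

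The enzymes of deoxynucleotide supply make or salvage the precursors of DNA. Rrm2, the ribonucleotide reductase subunit whose level sets its activity in S phase, had levels of 2.31 and 0.70 in Meis1-negative, compared with 0.51 and 0.55 in Meis1-low, and with -0.76 and -0.87 in Meis1-high. The replicates of Meis1-high and of Meis1-low were nearly equal, and no gates overlapped. Rrm2 differed by -1.35 ± 0.71 in Meis1-high against Meis1-low (adjusted p = 0.481) and by -2.32 ± 0.71 against Meis1-negative (adjusted p = 0.358), and Meis1-low differed from Meis1-negative by -0.97 ± 0.71 (adjusted p = 0.689). Without Meis1-negative replicate 1 the last were -1.51 and -0.17.

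Tyms, thymidylate synthase, had levels of 2.49 and 1.45 in Meis1-negative, compared with 1.17 and 1.13 in Meis1-low, and with 0.52 and -0.16 in Meis1-high. The order of the gates was that of Rrm2, with differences of -0.97 ± 0.66 (adjusted p = 0.589) and -1.79 ± 0.66 (adjusted p = 0.423) for Meis1-high against the others, the second going to -1.27 without Meis1-negative replicate 1. Rrm1, the large reductase subunit, had levels of 2.79 and 1.49 in Meis1-negative, compared with 1.89 and 1.18 in Meis1-low, and with 0.70 and 0.93 in Meis1-high, with both Meis1-high arrays the lowest. Tk1, the thymidine kinase of dividing cells, had levels of 1.79 and -0.48 in Meis1-negative, compared with -0.61 and -0.54 in Meis1-low, and with -1.39 and -0.53 in Meis1-high, so that Meis1-low and Meis1-negative replicate 2 lay close together. The difference of Tk1 between Meis1-low and Meis1-negative was -1.23 ± 0.86 (adjusted p = 0.673), and -0.10 without Meis1-negative replicate 1.

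Several probes were held for 14 members, and 9 of them had several that passed the filter. These agreed in direction for 8 of 9 between Meis1-high and Meis1-negative and for 8 of 9 between Meis1-low and Meis1-negative, but for only 4 of 9 between Meis1-high and Meis1-low, where Orc3, Orc4, Orc5, Tyms and Gins1 had probes of opposite sign. For Tyms, one pair of 60-base probes shows how close such probes can be. Both read the minus strand of chromosome 5 of mm9, at 30387625 to 30388518 and 30387605 to 30387664, and share 40 bases with 1 substitution, A37C, counted from the 5′ end of the first, which is in capitals:
Tyms first probe: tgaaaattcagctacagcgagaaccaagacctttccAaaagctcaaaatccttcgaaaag
Tyms second probe: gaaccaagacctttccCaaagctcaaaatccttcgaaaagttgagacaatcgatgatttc
The first gave levels of 2.49 and 1.45 in Meis1-negative, compared with 1.17 and 1.13 in Meis1-low, and with 0.52 and -0.16 in Meis1-high. The second gave 1.47 and 0.48 in Meis1-negative, compared with 0.19 and 0.20 in Meis1-low, and with -0.30 and -1.27 in Meis1-high, so that both placed Meis1-high lowest and Meis1-negative replicate 1 highest. The probe of opposite sign between Meis1-high and Meis1-low was another one of Tyms, well above background on 2 arrays, with a difference of 0.52. The weaker probes of Gins1 and of Orc5 were likewise well above background on only 2 arrays.

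Since many of these genes are known E2F targets, RefSeq promoter windows (250 bases before to 50 after a gene's start, build GRCm38.p6) were searched for exact letters on both strands. Windows were held for 34 of 42 members. The E2F letters were TTTCCCGC, TTTGGCGC, TTTGCCGC or TTTCGCGC, the CCAAT box was CCAAT, and the letters of the cell cycle homology region (CHR), a promoter element of late cell cycle genes, were TTTGAA or TTCGAA. E2F letters stood in the windows of 13 members (38.2%), against 14 of 37 other replication genes (37.8%), 1 of 23 mitosis genes (4.35%) and 490 of 11777 tested genes (4.16%). CHR letters stood in 17.6% of members, 82.6% of mitosis genes and 17.2% of tested genes, and CCAAT in 61.8%, 82.6% and 42.7%. The windows below show this letter by letter: Orc1 is the member whose Meis1-negative arrays were farthest apart, Mcm5 and Mcm6 are the members of the MCM ring whose windows hold matches that overlap each other, and Ube2c, a ubiquitin-conjugating enzyme of mitotic exit, is a mitosis gene with CHR letters. Capitals mark E2F letters in the first 3 and CHR letters in Ube2c, on either strand, and overlapping matches form 1 capital run.
Orc1, chr4:108579337-108579453: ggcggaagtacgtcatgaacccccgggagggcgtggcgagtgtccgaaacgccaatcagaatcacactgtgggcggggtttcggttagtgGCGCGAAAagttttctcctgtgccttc
Mcm5, chr8:75109309-75109508: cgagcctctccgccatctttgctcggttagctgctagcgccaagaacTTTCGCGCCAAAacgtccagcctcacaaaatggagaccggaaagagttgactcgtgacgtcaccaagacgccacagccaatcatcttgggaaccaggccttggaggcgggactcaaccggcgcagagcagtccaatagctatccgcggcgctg
Mcm6, chr1:128359706-128359905: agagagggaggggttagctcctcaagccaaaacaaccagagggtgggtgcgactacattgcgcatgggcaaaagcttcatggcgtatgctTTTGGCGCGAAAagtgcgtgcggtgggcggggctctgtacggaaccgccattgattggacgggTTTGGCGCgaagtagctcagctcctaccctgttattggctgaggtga
Ube2c, chr2:164769729-164769928: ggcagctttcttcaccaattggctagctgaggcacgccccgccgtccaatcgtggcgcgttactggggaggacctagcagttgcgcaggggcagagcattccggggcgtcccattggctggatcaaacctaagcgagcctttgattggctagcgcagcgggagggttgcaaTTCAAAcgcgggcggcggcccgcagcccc
Orc1 lies on the plus strand, and its match began 27 bases before the start of the gene. In Mcm5 a pair of matches began 153 and 149 bases before the start, and in Mcm6, on the minus strand, matches began 110, 106 and 47 bases before it. The match in Ube2c began 29 bases before the start. Such a match describes letters, not binding.

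The members with E2F letters were Cdc6, Cdt1, Lig1, Mcm3, Mcm5, Mcm6, Mcm7, Orc1, Orc3, Pola1, Pold1, Pole2 and Rfc3. Their median difference was -1.65 between Meis1-high and Meis1-negative, against -1.41 for the 21 members whose windows lacked them. Set against Meis1-low, Meis1-high gave medians of -0.62 and -0.39. Medians of Meis1-low against Meis1-negative were -1.36 and -0.96. Leaving out Meis1-negative replicate 1 gave -0.62 against -0.68 and 0.08 against -0.24 for these pairs, so that the order of the sets turned. Medians of Meis1-negative replicate 1 against replicate 2 were 2.12 and 1.30. Cdc6, Orc3, Pold1 and Rfc3 hold the letters but did not share the order of gate means of the MCM genes, and the difference between these sets was not tested.

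**Figure D4:**
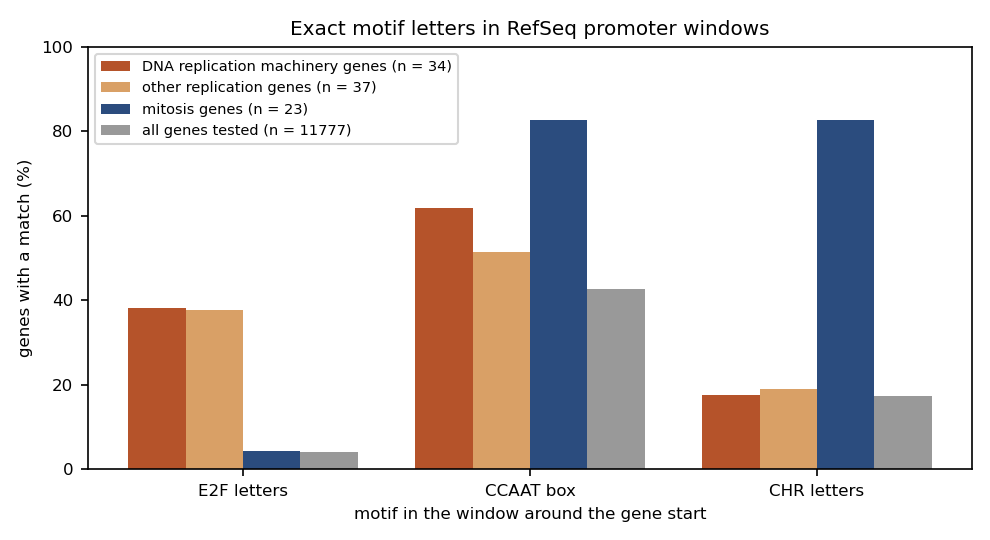
Share of genes (y axis, percent) with at least 1 exact match to E2F letters, CCAAT or CHR letters in a RefSeq promoter window, for replication members, other replication genes, mitosis genes and all genes tested (bars). Replication genes have the highest bars for E2F letters, at 38.2% and 37.8% against 4.16% of all genes, and mitosis genes for CHR letters, at 82.6%.

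Genes outside the 42 were read in the same fit. Another 44 replication genes, such as kinases, checkpoint mediators and chromatin assembly factors, had medians of -0.76 for Meis1-high against Meis1-low, of -1.63 for Meis1-high against Meis1-negative, and of -0.64 for the remaining pair. The last medians were -0.98 and -0.10 without Meis1-negative replicate 1. Cdc7 and Dbf4, the kinase and its activator that fire licensed origins, lay lower in Meis1-high than in Meis1-low, with differences of -2.41 ± 0.72 (adjusted p = 0.277) and -2.33 ± 0.86 (adjusted p = 0.329). Asf1b, a histone chaperone, lay lower in Meis1-high than in Meis1-negative, with a difference of -3.44 ± 0.90 (adjusted p = 0.32), or -2.22 without Meis1-negative replicate 1. Chtf18, a subunit of an alternative clamp loader, went the other way, by 1.80 ± 0.63 against Meis1-low (adjusted p = 0.308) and by 2.27 ± 0.63 against Meis1-negative (adjusted p = 0.332), the second going to 1.83 without that array.

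Mitosis genes act later in the cell cycle. Over 25 tested mitosis genes the median was -1.56 between Meis1-high and Meis1-low, -1.38 on slide 1 and -1.71 on slide 2, and on both slides all 25 had lower levels in Meis1-high (40.8% of all genes). Against Meis1-negative it was -1.77, or -1.44 without Meis1-negative replicate 1. Between Meis1-low and Meis1-negative it was -0.17, or 0.06 without that array. Kif11, a spindle motor, differed by -3.19 ± 0.75 between Meis1-high and Meis1-low (adjusted p = 0.253), and Aurkb, a mitotic kinase, by -2.79 ± 0.69 (adjusted p = 0.253). The difference between these lists was not tested. Mki67, a marker of cycling cells, had levels of 2.72 and 3.25 in Meis1-negative, compared with 1.81 and 3.35 in Meis1-low, and with 1.42 and 2.02 in Meis1-high. Over 14 tested genes of cell cycle exit, such as inhibitors of cyclin-dependent kinases, the medians were -0.16, -0.46 and 0.13 in the 3 comparisons, and -0.17 and 0.08 in the last 2 without Meis1-negative replicate 1.

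Within the Meis1-negative gate the members set the 2 arrays apart. Replicate 1 lay above replicate 2 for 41 of 42 members (45.2% of all genes) and by over 2-fold for 34 (19.4%), with a median of 1.55 on the log2 scale against -0.21 over all genes. The other replication genes had a median of 1.15 there and the mitosis genes 0.62. Thymocyte and T cell markers had a median of 4.67 and the epithelial markers -1.97. Dntt, which encodes terminal transferase, had levels of 9.55 and 3.17 on these arrays, Cd3e, which encodes a subunit of the CD3 complex, 6.82 and 1.12, and Ptprc, the gene of CD45, 5.17 and 3.17, although the sort took cells without CD45. In Meis1-high and Meis1-low the replicates differed by medians of 0.13 and 0.31 over the members. The part of thymocyte RNA in the levels of the members was not tested.

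**Figure D5:**
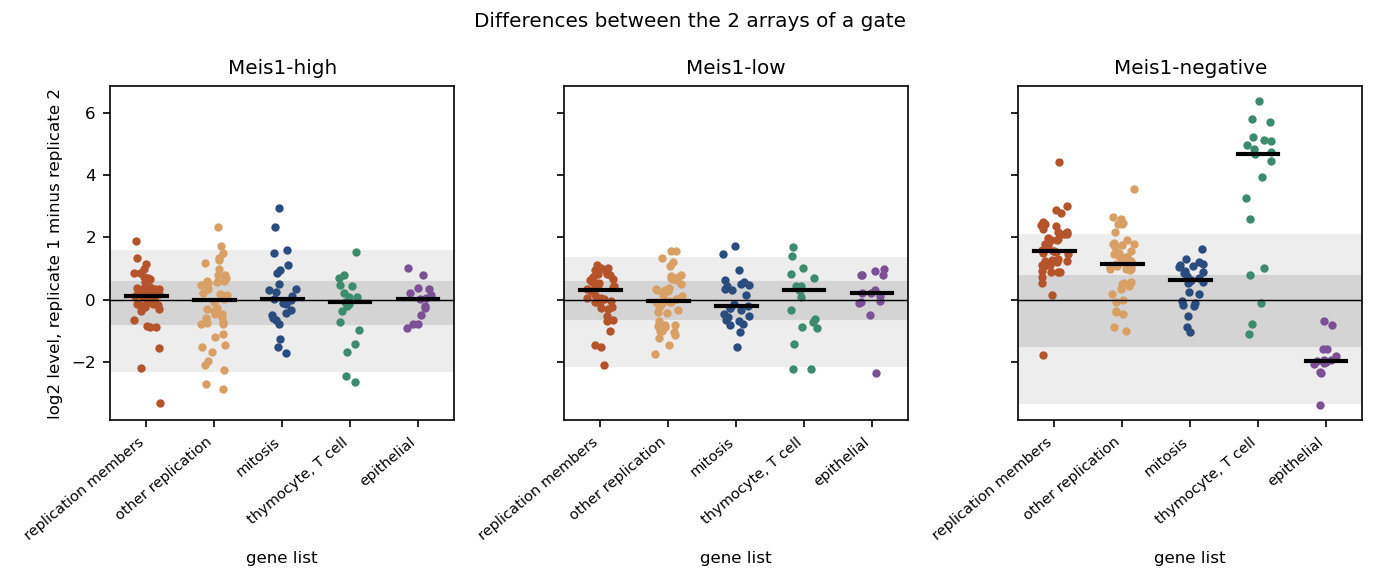
Log2 level of replicate 1 minus replicate 2 (y axis) in each gate for 5 gene lists (points are genes, bars are list medians, dark and light bands span the 25th to 75th and the 5th to 95th percentile of all genes tested). In Meis1-negative the replication members sit at a median of 1.55 and the thymocyte markers at 4.67, while the epithelial markers sit at -1.97, and in the other gates all 5 medians lie close to 0.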

How the data were processed

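The 42 members, and the lists set beside them, were chosen with earlier results of these data known. Agilent Feature Extraction 9.5.3.1 quantified the scans, with probes placed on mm9, per the file headers, and the intensity the authors deposited was background-subtracted and detrended within the array but not scaled between arrays. A surrogate value stood in for 15.5% to 28.2% of spots per array. The authors' deposited value table holds log2 values centred per probe, which tracked the scaled scanner signals, centred alike, with a correlation across probes of at least 0.9999, and served as an alternative.

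From the scanner files, control spots and 53 to 78 outlier spots per array were left out, spots were averaged per probe, and log2 values were taken relative to the 75th percentile of the array. RefSeq accessions named 26690 probes, current symbols 5123, synonyms 934 and other listed accessions 96, while 8331 probes kept the file's own name. All genes were fitted with limma 3.58.1 (R 4.3.3) on the 6 arrays, with the gate as the only factor, 3 residual and 4.36 prior degrees of freedom, Benjamini-Hochberg adjustment and a threshold of 0.05. Precision is limited by having 2 arrays per gate. Full statistics are given for the 2 members with the smallest p of each role in each comparison, and for up to 4 genes of each other list, with 7 check genes. A bound ("at least N-fold") sets the brighter gate's mean against the mean of, per array, the higher of the lowest signal well above background and the probe's own signal. It allows for the detection limit, not for the spread between arrays. The fit was tested on simulated data. No probe-level saturation was marked. Alternatives are given with the limits. Figures and motif searches used Python 3.11.15, matplotlib 3.10.9 and pandas 2.3.3.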

Additional observations from a re-analysis of the deposited data

How the results depend on the processing

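The labels do not say that a replicate number marks a shared pool or experiment, and slide, scan and replicate number are 1 block here. Replicate differences of the gates correlated across genes at 0.209, 0.128 and 0.125. With the replicate block (slide) in the fit 0 members were called, as without it. The medians over members stayed at -0.60, -1.53 and -0.97. They could not change, because each gate has 1 array on each slide, so they are no check on the slide. Normexp background correction gave a median of -0.31 and 16 members without overlap between Meis1-high and Meis1-low (22.0% of all genes), 6 without overlap between Meis1-low and Meis1-negative (9.62%), 3 members called between Meis1-high and Meis1-negative (Mcm3, Mcm6 and Pcna, 351 genes called in all) and 2 called by the F test (550 genes). Median scaling, which moved the overall median of Meis1-high against Meis1-negative by -0.102, left 17 members without overlap between Meis1-high and Meis1-low (28.3%) and 9 between Meis1-low and Meis1-negative (13.8%), with 0 members called among 74, 13 and 61 genes called. With 1 array left out in turn, the medians ranged from -0.76 to -0.36 (Meis1-high versus Meis1-low), -2.46 to -0.68 (Meis1-high versus Meis1-negative) and -1.77 to -0.14 (Meis1-low versus Meis1-negative). The counts of members called ranged from 0 to 0, 0 to 5 and 0 to 3, and from 0 to 2 for the F test, the highest ones all without Meis1-negative replicate 2 (946, 1265 and 968 genes called in all). The same leave-outs for members without overlap, chosen after seeing the data, gave 27 to 33, 33 to 40 and 17 to 40, with shares of all genes of 31.1% to 45.9%, 20.0% to 39.3% and 15.8% to 37.7%. The medians of other lists and of members with E2F letters without Meis1-negative replicate 1 were also added after seeing the data. Named genes turned direction in 6 cases: Fen1 (0.081, normexp) and Orc5 (-0.27, mean over probes) between Meis1-low and Meis1-negative, Orc4 (-0.51, mean over probes) and Cdt1 (0.16 without Meis1-low replicate 1, with leave-outs down to -0.85) between Meis1-high and Meis1-low, and Rpa2 (0.23, down to -2.16) and Cdt1 (0.13, down to -2.89) between Meis1-low and Meis1-negative without Meis1-negative replicate 1. Leaving out an array also leaves fewer samples; the cause of the other changes was not tested. Quantile scaling, no filter, a filter on 4 arrays (which kept 40 members), a floor, array weights, a variance trend, kept outlier spots, the authors' values and an adjusted p under 0.10 gave 0 members called. Signal near background limits Orc1, Orc5, Prim2, Pole, Pole2 and Fen1, which were not well above background on all 6 arrays.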
